A study of Homo sapiens with 54 samples.

Results

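Gene expression after 24 h of carboplatin was compared with expression after 8 h, pooled over 6 lines of high-grade serous ovarian cancer. All libraries labelled with these times were taken, which gave 18 libraries at 24 h and 18 at 8 h, or 36 of the 54 libraries of the series. The lines were PEA1, PEO1 and PEO14, labelled platinum sensitive, and PEA2, PEO4 and PEO23, labelled platinum resistant, and PEA1 and PEA2, PEO1 and PEO4, and PEO14 and PEO23 each came from one patient. Every culture grew for 48 h before 80 µM carboplatin was added, there were 3 replicates for each line and time, and the 6 lines therefore stand for 3 patients. The 24 h and 8 h libraries with the same line and replicate number shared a passage in 18 of 18 cases and are called a pair. No drug-free culture harvested at 8 h is among the labels, so hours in the drug and hours in culture cannot be told apart.

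Carboplatin forms adducts and crosslinks on DNA, which block replication forks and RNA polymerase and set off the DNA damage checkpoints. Replication-dependent histone genes supply the core and linker histones that package newly made DNA. Their mRNAs accumulate during S phase, end in a stem-loop in place of a poly(A) tail, and are degraded quickly when DNA synthesis stops. The mitotic genes that follow, such as those for Aurora kinase A and cyclin B, peak later in the cycle.

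The values were TPM (length-normalised transcript shares of each library) for 25435 genes, from total RNA and not from poly(A)-selected RNA. Read depth cannot be had from TPM, and the values therefore come without counting errors. The number of genes listed above 0 TPM had a median of 14485 at 24 h and 14312.5 at 8 h, with ranges of 6058 to 16543 and 8947 to 15510. The mean difference of 24 h minus 8 h was -228.5 genes (SD 3607, 18 pairs; two-sided permutation test of paired differences, p = 0.791). In 4 libraries at 24 h and 3 at 8 h fewer than 12000 genes were listed. The 12 pairs in which both libraries listed at least 12000 genes are called the kept pairs, and 6 pairs were set aside. The kept pairs are 3 of PEA1, 2 of PEA2, 2 of PEO1, 1 of PEO4, 1 of PEO14 and 3 of PEO23. In 2 kept pairs, replicate 2 of PEO1 and of PEO4, the scaling factors of the 2 libraries differed more than 2-fold, and the RNAs RMRP and RPPH1 together held 16.2% of TPM at 24 h and 41.2% at 8 h in the first and 16.7% at 24 h and 38.2% at 8 h in the second. The epithelial keratins KRT8 and KRT18 were high in all 6 lines, and the Müllerian factor PAX8 had medians of 14.8 rescaled TPM in PEO1 to 41.5 in PEO4. WT1 had a median of 19.2 in PEO4 and of 0 in PEO14 to 3.02 in PEO1 among the other lines. EPCAM had a median of 3.91 rescaled TPM in PEA1, and MUC16 medians of 0 to 3.21. The endothelial marker PECAM1 had a median of 0 in every line. Of the markers of other cell types, 3 of 12 for fibroblasts, 2 of 12 for leukocytes and 3 of 11 for endothelium averaged at least 1 TPM. Their summed TPM had medians of 9.14, 28.1 and 7.11 at 24 h and 6.89, 12.1 and 5.05 at 8 h. The highest sums in a library were 37.5, 64.9 and 198 TPM at 24 h and 33.9, 52.9 and 219 at 8 h. The comparison of 24 h with 8 h had adjusted p-values of 0.941, 0.251 and 0.941 over 6 library measures (permutation tests of paired differences, 18 pairs).

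Over all 18 pairs, limma called 0 of 12106 genes at an adjusted p under 0.05 (0% higher and 0% lower at 24 h). At an unadjusted p under 0.05, 174 genes (1.44%) were higher and 454 (3.75%) lower at 24 h, together 628 genes (5.19%). The lowest adjusted p, 0.062, belonged to HIST1H2BI and HIST2H2BF, which both encode the core histone H2B. With array weights, which give less weight to variable libraries, 50 genes (0.413%) rose and 153 (1.26%) fell, the 20 genes described next among them. Over the 12 kept pairs, 20 of 12352 genes were called (0.162%), of which 3 rose (0.0243%) and 17 fell (0.138%) at 24 h. At an unadjusted p under 0.05 the kept pairs gave 855 higher (6.92%) and 741 lower genes (6%), together 1596 (12.9%). Histones made up 14 of the 17 genes that fell, and the other 3 were AURKA, DIAPH2 and ITGB6. TSPYL2, IFIT3 and GABARAPL1 rose. Without rescaling between libraries 8 of the 20 genes passed, all of them histones. AURKA, DIAPH2, ITGB6, TSPYL2, IFIT3 and GABARAPL1 did not pass in that setting. Of the 20 genes, 19 moved in the same direction in all 12 kept pairs and 20 in all 6 line means of these pairs. These counts use the scaling factors of the kept libraries. With the factors of all 36 libraries, GABARAPL1 was at -0.19 in replicate 3 of PEA2 and IFIT3 at -0.07 in replicate 3 of PEA1. HIST2H4A and HIST2H4B were then at 0.08 in replicate 1 of PEO1. Over all 18 pairs the fitted changes of the 20 genes kept the sign in 20 of 20, and 13 had the same sign in 6 of 6 line means. When the 2 kept pairs with unequal scaling factors were left out, 5 genes remained called, all histones that fell (HIST1H1D, HIST1H2AL, HIST1H2BJ, HIST1H2BM and HIST1H4B), and the 20 genes kept their directions. Leaving out all pairs of 1 line left 0 calls without PEO23, and 3, 4 and 5 lower genes without PEA1, PEO1 and PEO14. Without PEA2 there were 2 higher and 10 lower genes and without PEO4 3 higher and 10 lower, and leaving out 1 replicate number left 0 higher and 0 to 2 lower. With the line means of the kept pairs as the unit, 0 genes were called in either direction. The genes named here were chosen after their values were seen, since 0 genes met the rule that asked for a call over all pairs and again over the kept pairs.

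**Figure D1:**
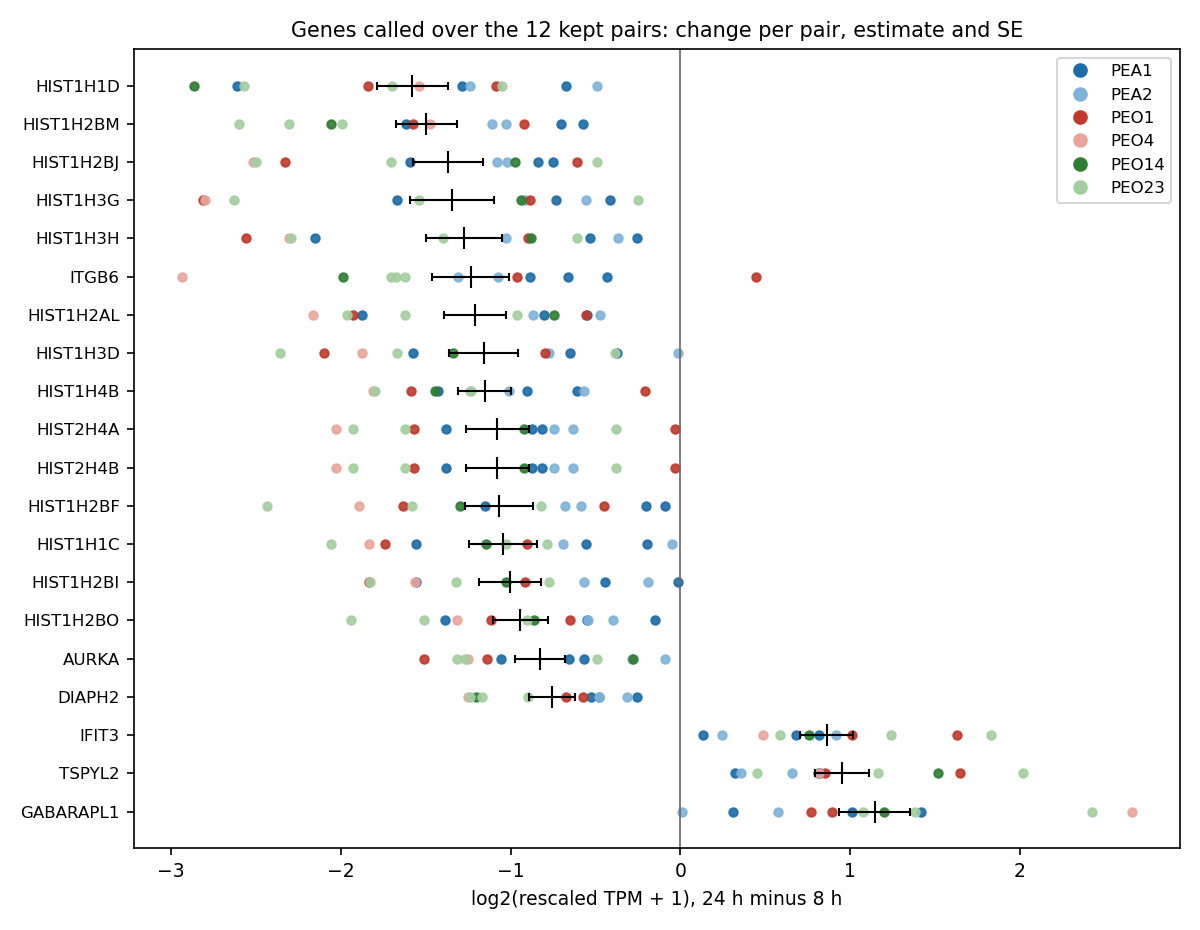
Change from 8 h to 24 h of carboplatin for the 20 genes called over the 12 kept pairs. Points are pairs coloured by line, on the log2(rescaled TPM + 1) scale as 24 h minus 8 h, and black marks give the limma estimate with its standard error. With the scaling factors of the kept libraries, all histone points lie below 0 and ITGB6 has 1 pair above 0. All points of IFIT3, TSPYL2 and GABARAPL1 lie above 0.

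The histone genes that fell lie in the large cluster on chromosome 6 and a smaller one on chromosome 1. The promoters of 3 of them are shown because these genes had among the lowest adjusted p-values and because histone promoters are known for CCAAT and TATA boxes. The sequences run from 250 bases before to 50 after the start and are RefSeq sequences of build GRCh38.p14. HIST1H1D is at chr6:26234938-26235237, minus strand, HIST1H2BM at chr6:27814772-27815071, plus strand, and HIST1H4B at chr6:26027234-26027533, minus strand. Capitals mark CCAAT or its reverse complement ATTGG, and TATAAA or its reverse complement TTTATA.
HIST1H1D: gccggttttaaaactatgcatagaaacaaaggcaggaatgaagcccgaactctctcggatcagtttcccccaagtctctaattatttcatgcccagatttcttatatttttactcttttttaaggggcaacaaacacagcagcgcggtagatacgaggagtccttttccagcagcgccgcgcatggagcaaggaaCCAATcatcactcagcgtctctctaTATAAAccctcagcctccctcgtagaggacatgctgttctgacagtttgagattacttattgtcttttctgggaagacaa
HIST1H2BM: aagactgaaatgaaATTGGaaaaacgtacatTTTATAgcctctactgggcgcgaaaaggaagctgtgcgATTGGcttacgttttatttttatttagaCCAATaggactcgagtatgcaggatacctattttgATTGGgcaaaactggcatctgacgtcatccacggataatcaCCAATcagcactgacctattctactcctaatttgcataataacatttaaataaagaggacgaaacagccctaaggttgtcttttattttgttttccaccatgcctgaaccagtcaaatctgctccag
HIST1H4B: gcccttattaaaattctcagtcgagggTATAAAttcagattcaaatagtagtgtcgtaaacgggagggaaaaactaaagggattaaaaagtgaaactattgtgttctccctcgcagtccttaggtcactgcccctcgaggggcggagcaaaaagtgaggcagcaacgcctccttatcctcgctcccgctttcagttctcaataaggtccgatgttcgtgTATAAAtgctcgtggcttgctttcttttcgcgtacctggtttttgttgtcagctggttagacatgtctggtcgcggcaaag
HIST1H2BM holds 5 CCAAT matches and HIST1H4B holds 0, whereas TATAAA is present in all 3. Of the 54 histones tested, 44 matched a promoter of the table, and 36 of these (81.8%) held CCAAT on either strand, against 37.4% of the promoters of all tested genes and 34.6% of all 35116 promoters. TATAAA stood in 30 of 44 (68.2%), against 5.4% of the tested genes and 11.5% of all promoters. A match says only that the letters are there.

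HIST1H1D, which encodes a linker histone H1, had 22.3 to 1731 rescaled TPM with a median of 198 at 24 h, against 169 to 5037 with a median of 547 at 8 h (12 kept libraries each). The ranges overlapped between lines, yet each pair was lower at 24 h, by 0.49 to 2.87 on the log2 scale. The estimate was -1.58 ± 0.21 (SE, 12 pairs; limma, adjusted p = 0.00609), and -1.68 ± 0.33 over all 18 pairs (limma, adjusted p = 0.101). HIST1H2BM, a core histone H2B gene, had 6.65 to 150.2 rescaled TPM with a median of 32.6 at 24 h, against 11.5 to 478 with a median of 134.7 at 8 h. Its change of -1.50 ± 0.18 had the lowest adjusted p of the kept pairs (limma, adjusted p = 0.0037). HIST1H4B, one of the genes for histone H4, had a median of 155 at 24 h and 347 at 8 h and fell by 1.15 ± 0.16 on the log2 scale (limma, adjusted p = 0.00609).

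The other histones that fell were HIST1H1C of the H1 family, HIST1H2AL of H2A, HIST1H2BF, HIST1H2BI, HIST1H2BJ and HIST1H2BO of H2B, HIST1H3D, HIST1H3G and HIST1H3H of H3, and HIST2H4A and HIST2H4B of H4. HIST2H4A and HIST2H4B carry identical values and are near-identical copies, and the histone genes of a family resemble each other enough that the authors' quantifier could divide reads between them. The estimates of these 11 genes lay between -1.37 and -0.94, and HIST1H1C was the most abundant, with a median of 1149.9 rescaled TPM at 24 h and 1986 at 8 h.

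The list of replication-dependent histones had 54 members tested, of which 13 fell and 0 rose over the kept pairs (HIST2H4B, which also fell, is not on the list), with a median log2 change of -1.0 beside 0.02 for all 12352 genes. Without rescaling between libraries these medians were -0.69 and 0.25. At an unadjusted p under 0.05, 52 of the 54 were lower in the kept pairs and 50 over all pairs, beside the 6% and 3.75% of all genes given above. By family the median differences were -1.04 for 5 H1 genes, -1.07 for 12 H2A genes, -0.98 for 15 H2B genes, -0.97 for 10 H3 genes and -1.0 for 12 H4 genes. Of 9 histone variants made throughout the cycle from polyadenylated mRNA, 0 were called in either direction (all genes: 0.162%) and the median was -0.03. H2AFZ, the gene of variant H2A.Z, had medians of 350.4 at 24 h and 360.03 rescaled TPM at 8 h and a change of -0.27 ± 0.20 (limma, adjusted p = 0.567). Among 12 factors that transcribe or process histone mRNA 0 were called (all genes: 0.162%). At this share, lists of 9 and 12 genes would hold few calls or none. SLBP, which binds the stem-loop, had a log2 difference of 0.03 ± 0.14 (limma, adjusted p = 0.94). Both of these lists were added after the values were seen.

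The summed share of replication-dependent histone mRNA in each library needs no rescaling between libraries and was lower at 24 h in 18 of 18 pairs. Its median was 3.23% of TPM at 24 h and 4.51% at 8 h, and the median ratio within a pair was 0.608. A share also depends on the other RNAs of the library, and on the rescaled scale the sum was lower in 17 of 18 pairs and in 12 of 12 kept pairs. The exception was replicate 3 of PEO4, a pair set aside, with 124403 rescaled TPM at 24 h and 80420 at 8 h, a ratio of 1.55. RMRP and RPPH1 held 26.8% of TPM at 24 h and 7.23% at 8 h in that pair, and their part in its values was not tested. PEA1 had 3.00%, 1.84% and 2.84% at 24 h, against 4.40%, 3.63% and 3.77% at 8 h. PEA2 had 3.72%, 3.46% and 3.98% at 24 h, against 5.70%, 5.71% and 4.77% at 8 h. In both of these lines the 2 times did not overlap. PEO1 had 4.21%, 3.94% and 4.22% at 24 h, against 5.53%, 4.61% and 5.60% at 8 h. PEO4 had the highest shares of the 6 lines at 8 h but not in every library at 24 h, with 3.64%, 4.51% and 5.78% at 24 h, against 7.02%, 7.38% and 6.84% at 8 h. PEO14 had the lowest, with 0.711%, 0.802% and 0.666% at 24 h, against 1.75%, 1.61% and 1.55% at 8 h. PEO23 had 1.46%, 1.22% and 1.28% at 24 h, against 2.64%, 2.17% and 3.17% at 8 h. The times did not overlap within any of the 6 lines, and at both times PEO14 and PEO23 lay below the other 4 lines. Untreated libraries that listed at least 12000 genes had medians of 4.09% in PEA2, 4.65% in PEO1, 5.44% in PEO4 and 1.58% in PEO14 (3 libraries each) and 4.08% in 1 library of PEA1. These libraries are labelled 0 h, while the series text speaks of a vehicle at 24 h, so their time in culture is not certain. In bulk RNA, fewer cells in S phase and less histone mRNA in each cell cannot be told apart.

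**Figure D2:**
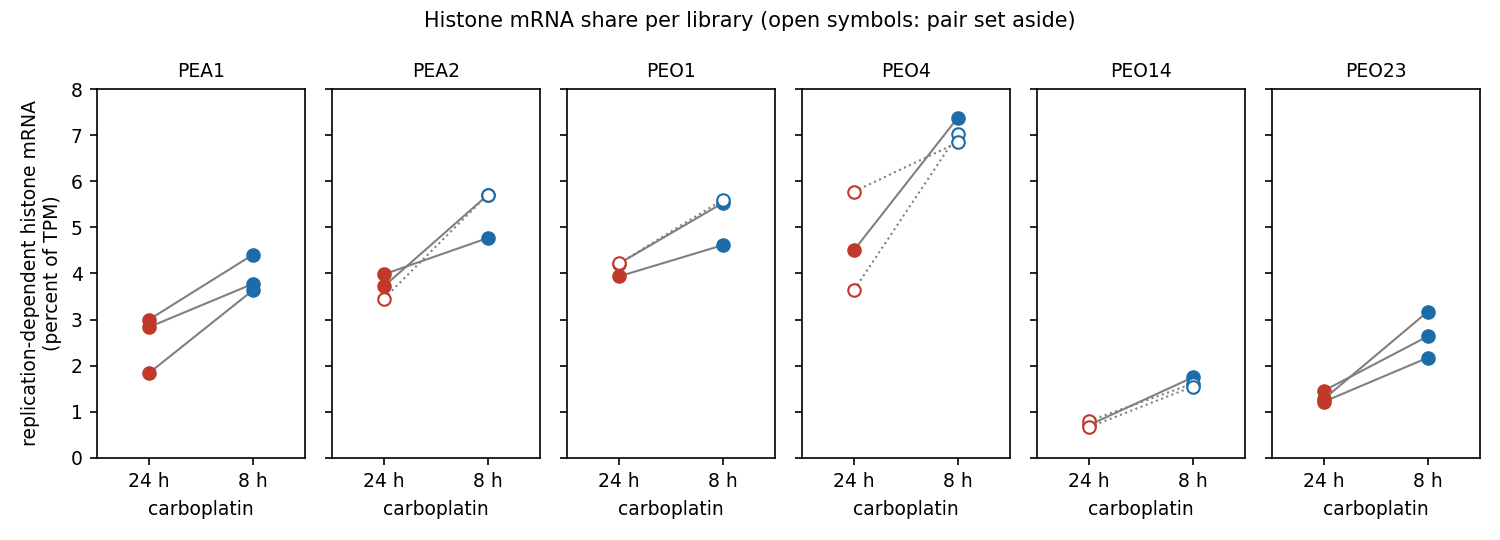
Share of TPM held by replication-dependent histone mRNA in each of the 36 libraries, one panel for each line with 24 h left of 8 h. Lines join the 2 libraries of a pair, and open symbols with dotted lines are the 6 pairs set aside. All 18 joined pairs are lower at 24 h than at 8 h, and PEO14 lies lowest with 0.666% to 1.75%.

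Other short RNAs were also lower at 24 h in some pairs. Tested genes other than histones whose longest annotated transcript is at most 600 nucleotides (169 genes; the histones have a median of 496) had a median change of -0.24 over the kept pairs. By line their medians were -0.14 in PEA1, 0.03 in PEA2, -0.55 in PEO1, -1.63 in PEO4, 0.54 in PEO14 and -0.07 in PEO23. The histone medians in the same lines were -0.60, -0.40, -1.32, -2.22, -0.71 and -1.35. Both PEO4 medians come from 1 kept pair, whose scaling factors differed 3.67-fold. The histone median was below that of the other short transcripts in 12 of 12 kept pairs and 15 of 18 pairs in all. The list of small structural RNAs, which also lack a poly(A) tail, had a median of -0.66 with 3 of 17 members lower and 0 higher at an unadjusted p under 0.05 (all genes: 6% lower and 6.92% higher). Without the 2 pairs of unequal scaling factors the medians were -0.77 for histones and -0.11 for small structural RNAs. The part of fragment length in these values was not tested.

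**Figure D3:**
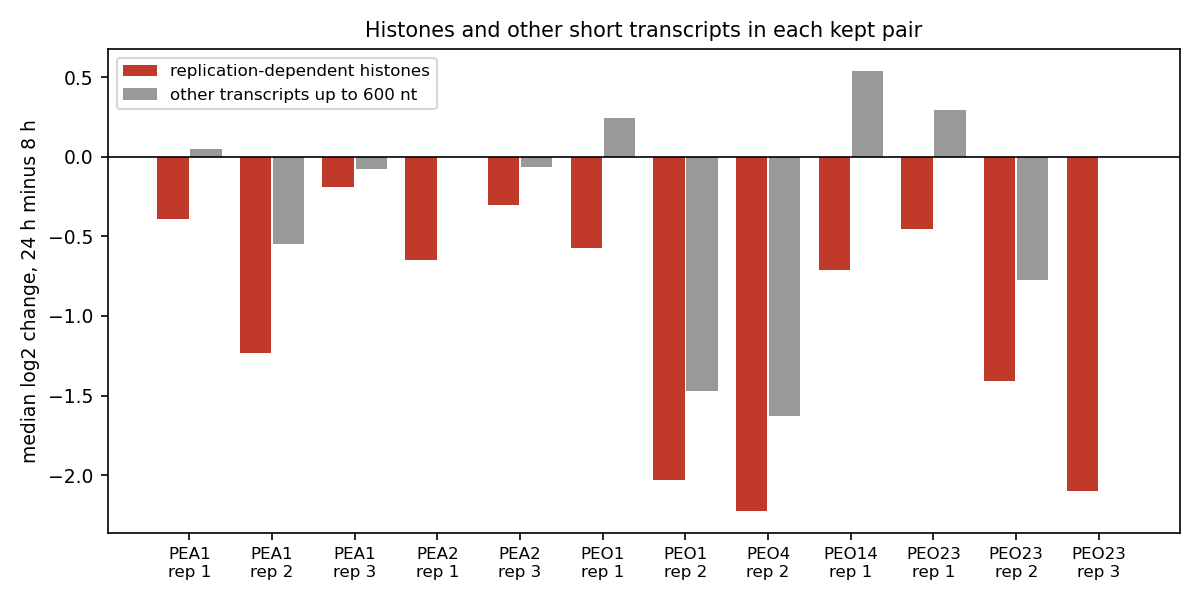
Median log2 change, 24 h minus 8 h, in each of the 12 kept pairs for replication-dependent histones (red bars) and for other tested genes with transcripts of at most 600 nucleotides (grey bars). The histone bar lies below the grey bar in 12 of 12 pairs, and the grey bars range on both sides of 0.

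Genes of the G2 phase and mitosis stood mostly lower at 24 h, and 1 of them passed the test. AURKA, which encodes the kinase that matures centrosomes and builds the spindle, had 22.8 to 79.2 rescaled TPM with a median of 49.4 at 24 h, against 56.3 to 103.5 with a median of 84.1 at 8 h. It was lower in 12 of 12 kept pairs and fell by 0.83 ± 0.15 on the log2 scale (limma, adjusted p = 0.0353), while over all 18 pairs the change was -0.63 ± 0.35 (limma, adjusted p = 0.952). Of the 62 listed genes tested, 26 were lower and 0 higher at an unadjusted p under 0.05 (all genes: 6% lower), with a median of -0.35. Without rescaling this median was -0.06, beside 0.25 for all genes. Over all pairs 15 were lower and 0 higher at that level (all genes: 3.75% lower), with a median of -0.51. KIF20A, a kinesin of cytokinesis, had medians of 23.5 at 24 h and 38.7 at 8 h. Its change was -0.83 ± 0.16 (limma, adjusted p = 0.0532), and it was lower in 18 of 18 pairs over all libraries. The same held for HIST1H2AL, HIST2H2BF and MAPKAP1, a subunit of the kinase complex mTORC2 with a difference of -0.62 ± 0.18, which makes 4 of the 12106 genes (0.033%), and 0 genes were higher in every pair.

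TOP2A, the topoisomerase that untangles sister chromatids, had a log2 difference of -0.63 ± 0.14 (limma, adjusted p = 0.085). CDC20, an activator of the anaphase-promoting complex, had medians of 82.8 at 24 h and 151 at 8 h with a change of -0.80 ± 0.19 (limma, adjusted p = 0.115). CCNB1, the gene of cyclin B, and PLK1, a mitotic kinase, had log2 differences of -0.90 ± 0.25 and -0.64 ± 0.16 (limma, adjusted p = 0.155 and 0.132). MKI67, a proliferation marker, stood at 0.18 ± 0.20 (limma, adjusted p = 0.696). Over the kept pairs the list's median by line was lowest in PEO4, at -1.08, from its 1 kept pair, which has unequal scaling factors. It was -0.58 in PEO1, -0.33 in PEA1, -0.27 in PEO23 and -0.16 in PEA2. In PEO14, with its 1 kept pair, it was 0.13. Over all 18 pairs the medians of PEO14 and PEO1 took the other sign, at -1.09 and 0.36. Genes with a RefSeq span, histones left out, had medians of -0.70 and 0.37 in these lines over all 18 pairs. Without the 2 pairs of unequal scaling factors 28 of the 62 were lower at an unadjusted p under 0.05, with a median of -0.28.

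The promoters of KIF20A (chr5:138178862-138179161, plus strand), CDC20 (chr1:43358731-43359030, plus strand) and TOP2A (chr17:40417847-40418146, minus strand) are shown because mitotic promoters are known for CCAAT boxes spaced upstream of a TTTGAA element. They come from the same RefSeq table of build GRCh38.p14. Capitals mark CCAAT or ATTGG and TTTGAA or its reverse complement TTCAAA. AURKA is not in that table.
KIF20A: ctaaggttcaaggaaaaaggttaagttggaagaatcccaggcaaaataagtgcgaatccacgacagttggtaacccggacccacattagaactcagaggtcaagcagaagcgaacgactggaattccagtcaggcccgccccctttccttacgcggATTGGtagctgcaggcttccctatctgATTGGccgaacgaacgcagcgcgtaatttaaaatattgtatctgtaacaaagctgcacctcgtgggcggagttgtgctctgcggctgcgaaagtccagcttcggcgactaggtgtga
CDC20: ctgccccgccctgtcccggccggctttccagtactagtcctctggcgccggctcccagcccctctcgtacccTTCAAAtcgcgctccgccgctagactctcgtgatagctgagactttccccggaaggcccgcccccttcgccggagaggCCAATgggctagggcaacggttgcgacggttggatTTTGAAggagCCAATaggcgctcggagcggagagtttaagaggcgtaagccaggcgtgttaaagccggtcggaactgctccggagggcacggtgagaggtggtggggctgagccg
TOP2A: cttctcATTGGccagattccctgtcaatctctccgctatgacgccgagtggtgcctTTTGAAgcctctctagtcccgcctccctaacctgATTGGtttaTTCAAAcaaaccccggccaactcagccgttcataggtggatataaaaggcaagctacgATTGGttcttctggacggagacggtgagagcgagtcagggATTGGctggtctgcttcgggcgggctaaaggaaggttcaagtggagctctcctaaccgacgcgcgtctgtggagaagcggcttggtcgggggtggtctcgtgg
CDC20 holds 2 matches of each motif, TOP2A holds 4 of CCAAT and 2 of TTTGAA, and KIF20A holds 2 of CCAAT and 0 of TTTGAA. Among the 51 listed G2 and mitosis genes with a promoter in the table, 40 (78.4%) held CCAAT and 34 (66.7%) TTTGAA, against 37.4% and 9.52% of the tested genes and 34.6% and 15.2% of all promoters. In the 44 histone promoters TTTGAA stood in 17 (38.6%), and in the 44 promoters of G1/S genes in 1 (2.27%). The G1/S promoters instead held TTCCCGC in 18 (40.9%) and TTGGCGC in 14 (31.8%), letters of E2F elements, against 10.9% and 5.24% of the tested genes and 6.55% and 3.04% of all promoters. TTCGAA, a variant of the TTTGAA element, stood in 5.88% of the G2 and mitosis promoters, 1.73% of the tested genes and 1.45% of all. GGGCGG, letters of an Sp1 box, stood in 72.5% of them, close to the 70.9% of the tested genes, against 45% of all promoters. The cAMP response letters TGACGT stood in 21.6% of them, against 12.1% of the tested genes and 7.98% of all. TGATGCA stood in 0%, against 1.2% of the tested genes and 2.63% of all. The AP-1 letters TGACTCA, counted together with the reverse complement, stood in 0%, against 2.93% of the tested genes and 4.95% of all. Every motif was searched on both strands.

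Genes of the G1/S transition and DNA replication were mostly higher at 24 h, and 0 of 53 passed the test. Over the kept pairs 18 were higher and 1 lower at an unadjusted p under 0.05 (all genes: 6.92% higher), with a median of 0.21. Over all pairs 5 were higher and 0 lower (all genes: 1.44% higher). CHAF1B, a subunit of the chromatin assembly factor that places new histones behind the fork, had medians of 21.8 at 24 h and 13.2 rescaled TPM at 8 h. It was higher in 12 of 12 kept pairs, with a change of 0.78 ± 0.18 (limma, adjusted p = 0.0951), and over all 18 pairs 0.38 ± 0.26 (limma, adjusted p = 0.952). RRM2, the small subunit of ribonucleotide reductase, and TK1, thymidine kinase, each had a log2 difference of 0.50 (SE 0.13 and 0.14; limma, adjusted p = 0.147 and 0.153). CDC6, which loads the replicative helicase, had a log2 difference of 0.42 ± 0.12 (limma, adjusted p = 0.179). PCNA, the sliding clamp, was at -0.12 ± 0.22 (limma, adjusted p = 0.838). Over the kept pairs the list's median ran from 0.10 in PEA2 to 0.38 in PEO4, which like PEO14 has 1 kept pair. The PEO4 pair has unequal scaling factors. Over all 18 pairs the list's median was -0.26 in PEO4 and -0.40 in PEO14, and 0.15 to 0.68 in the other 4 lines. Genes with a RefSeq span, histones left out, had medians of -0.21 in PEO4 and -0.70 in PEO14 over all 18 pairs. In the other 4 lines the medians of these genes were -0.08 to 0.37.

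Genes with a long genomic span had lower median differences than short ones, and 1 of those over 300 kb passed the test. Histones were left out of this count, and spans of the RefSeq annotation were found for 98% of the tested genes. Over the kept pairs the median log2 change was 0.06 for 2705 genes under 10 kb, 0.09 for 3535 genes of 10 to 30 kb, 0.01 for 3805 genes of 30 to 100 kb, -0.07 for 1678 genes of 100 to 300 kb and -0.26 for 322 genes over 300 kb. Without rescaling between libraries the same classes had medians of 0.31, 0.32, 0.23, 0.14 and -0.08, beside 0.25 for all genes of the kept pairs, so that the order of the classes held while the 100 to 300 kb class changed sign. Over all pairs the same classes had medians of -0.01, -0.03, -0.11, -0.22 and -0.36. At an unadjusted p under 0.05, 36% of the genes over 300 kb were lower and 0.311% higher, against 2.99% lower and 9.8% higher under 10 kb. Across genes, which are not independent replicates, Spearman's rho of span and change was -0.214 over the kept pairs and -0.247 over all pairs.

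The median of genes over 300 kb lay below that of genes up to 30 kb in 12 of 12 kept pairs and in 16 of 18 pairs. The 2 exceptions were replicate 3 of PEO1, with a difference of 0.22, and replicate 3 of PEO4, with 0.00. In PEO14 the difference reached -1.09, -0.78 and -0.93, and in the 8 kept pairs of PEA1, PEA2 and PEO23 it ran from -0.49 to -0.06. Long genes also had lower levels, with a median of 5.15 rescaled TPM over 300 kb and 16.1 under 10 kb. Among genes with a mean of 5 to 20 rescaled TPM the medians were 0.13 under 10 kb and -0.28 over 300 kb. Without the 2 pairs of unequal scaling factors, the medians of genes of all levels were 0.08 up to 30 kb and -0.31 over 300 kb.

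DIAPH2, a formin that nucleates actin filaments, spans 920.2 kb of the X chromosome and was the single gene over 300 kb to pass the test. It had 1.72 to 13.1 rescaled TPM with a median of 4.96 at 24 h, against 4.07 to 17.7 with a median of 8.60 at 8 h. It was lower in 12 of 12 kept pairs and fell by 0.75 ± 0.14 (limma, adjusted p = 0.0353), and over all 18 pairs the difference was -0.78 ± 0.22 (limma, adjusted p = 0.447). SUGCT, a mitochondrial CoA transferase of 903.8 kb, had a log2 difference of -1.11 ± 0.24 (limma, adjusted p = 0.0743). PTPRM, a receptor tyrosine phosphatase of 839.5 kb, had a median of 1.92 at 24 h and 3.65 at 8 h and had a log2 difference of -0.67 ± 0.15 (limma, adjusted p = 0.0761). SORCS2, a sorting receptor of 550.3 kb, and NBAS, a tether of vesicles at the endoplasmic reticulum of 782.4 kb, had log2 differences of -0.66 ± 0.16 and -0.61 ± 0.14 (limma, adjusted p = 0.124 and 0.102).

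**Figure D4:**
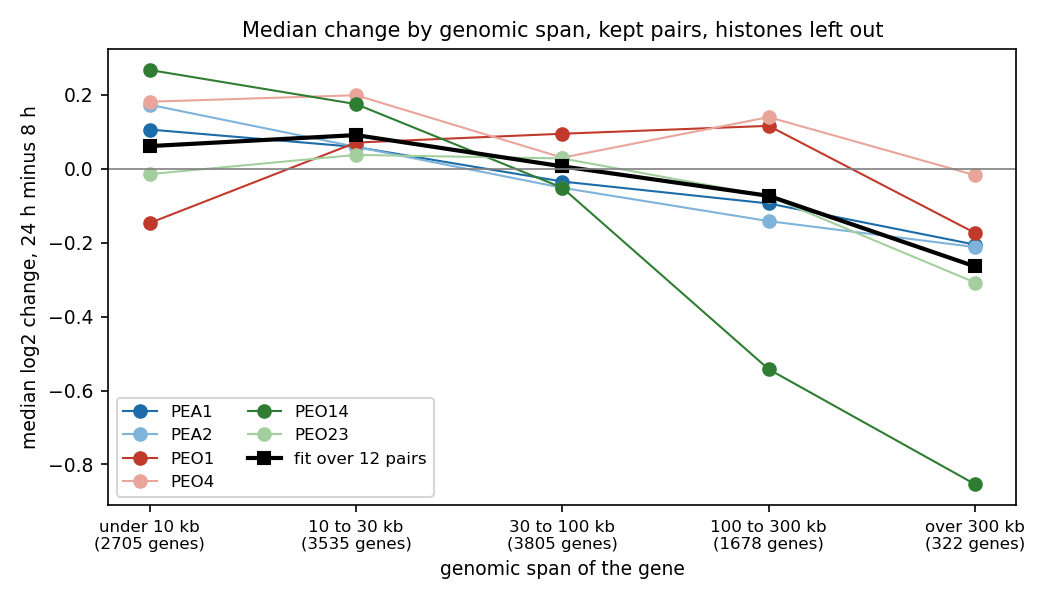
Median log2 change, 24 h minus 8 h, by class of genomic span for the kept pairs, coloured by line and with the fit over 12 pairs in black. The black line ends at -0.26 over 300 kb, where the 6 lines lie between -0.85 in PEO14 and -0.02 in PEO4.

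The 3 genes that rose have different known roles. GABARAPL1, an ATG8-family protein of the autophagosome membrane, had 4.46 to 61.1 rescaled TPM with a median of 12.5 at 24 h, against 0 to 26.02 with a median of 7.07 at 8 h. It was higher in 12 of 12 kept pairs, by 1.15 ± 0.21 on the log2 scale (limma, adjusted p = 0.0353). With the scaling factors of all 36 libraries, replicate 3 of PEA2 was lower, at -0.19. TSPYL2, a nuclear protein of the nucleosome assembly protein family with growth-inhibiting activity, had medians of 16.8 at 24 h and 8.84 at 8 h and rose by 0.95 ± 0.16 (limma, adjusted p = 0.0353). IFIT3, an interferon-induced antiviral protein, had medians of 20.8 at 24 h and 11.4 at 8 h and rose by 0.86 ± 0.16 (limma, adjusted p = 0.0353). Their differences over all 18 pairs were 0.69, 0.83 and 0.39 (limma, adjusted p = 0.952, 0.636 and 0.952).

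Interferon-stimulated genes had IFIT3 as their 1 call among 34 tested. At an unadjusted p under 0.05, 12 were higher and 0 lower (all genes: 6.92% higher and 6% lower), with a median of 0.29. Over all pairs 1 of 31 was higher (all genes: 1.44%). OAS1, a sensor of double-stranded RNA, had a log2 difference of 0.67 ± 0.14 (limma, adjusted p = 0.0688), and IFIT2 and the transcription factor IRF1 of 0.93 ± 0.25 and 0.55 ± 0.15 (limma, adjusted p = 0.147 for both). All 3 were higher in 12 of 12 kept pairs with the scaling factors of the kept libraries. With those of all 36 libraries, IFIT2 was at -0.15 in replicate 3 of PEA2 and IRF1 at -0.20 in replicate 3 of PEA1. The list's median ran from 0.00 in PEA1 to 0.999 in PEO4 over the kept pairs. PEO4 has 1 kept pair, with unequal scaling factors. In PEO14 the list's median was -0.70 over all 18 pairs, beside -0.70 for genes with a RefSeq span, histones left out. The summed leukocyte markers were higher at 24 h in 11 of 18 pairs, with a mean difference of 9.17 TPM (permutation test, unadjusted p = 0.0419), while CD3D, MS4A1 and TYROBP were listed at 0 in all libraries. The part of such cells in the interferon values was not tested.

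In the integrated stress response 0 of 28 genes passed the test, while 12 were higher and 0 lower at an unadjusted p under 0.05 (all genes: 6.92% higher and 6% lower), with a median of 0.33. At that level 6 were higher over all 18 pairs and 0 lower (all genes: 1.44% and 3.75%), with a median of 0.21. DDIT3, the stress transcription factor CHOP, had medians of 65.4 at 24 h and 32.2 rescaled TPM at 8 h and had a log2 difference of 0.80 ± 0.20 (limma, adjusted p = 0.132). NUPR1, a stress-induced chromatin protein, had a log2 difference of 0.92 ± 0.25 and STC2, a secreted glycoprotein, one of 0.44 ± 0.14 (limma, adjusted p = 0.153 and 0.22). The list's median was -0.13 in PEO14 and 0.02 in PEA1, against 0.37 to 0.86 in the other 4 lines, over the kept pairs. The 0.86 is that of PEO4, from its 1 kept pair, which has unequal scaling factors. In PEO14 the list's median was -0.76 over all 18 pairs, beside -0.70 for genes with a RefSeq span, histones left out.

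Of 31 p53 targets 0 passed the test, and 9 were higher and 0 lower at an unadjusted p under 0.05 (all genes: 6.92% higher and 6% lower), with a median of 0.26. This was 3 higher and 0 lower over all 18 pairs (all genes: 1.44% and 3.75%), with a median of 0.12 that was -0.51 in PEO14. Genes with a RefSeq span, histones left out, had a median of -0.70 in PEO14 over all 18 pairs. CDKN1A, the cyclin-dependent kinase inhibitor p21, had medians of 5.26 at 24 h and 3.04 at 8 h and had a log2 difference of 0.75 ± 0.24 (limma, adjusted p = 0.228). GADD45A, a growth-arrest protein, and BBC3, the BH3-only protein PUMA, had log2 differences of 0.66 ± 0.19 and 0.64 ± 0.18 (limma, adjusted p = 0.17 and 0.155). MDM2, the ubiquitin ligase of p53, was at -0.16 ± 0.15 (limma, adjusted p = 0.646). Among 25 immediate early and AP-1 genes 6 were higher and 0 lower at that level over the kept pairs (all genes: 6.92% higher), and 3 higher and 0 lower over all 18 (all genes: 1.44% higher). ATF3 had medians of 18.95 at 24 h and 7.18 at 8 h and had a log2 difference of 1.08 ± 0.25 (limma, adjusted p = 0.0951), MAFF one of 0.73 ± 0.19 (limma, adjusted p = 0.138) and JUN one of 0.45 ± 0.20 (limma, adjusted p = 0.368). This list's median was -0.14 in PEA1 and 1.30 in PEO4 over the kept pairs, and -0.17 and 0.64 over all 18. PEO4 has 1 kept pair, with unequal scaling factors. Genes with a RefSeq span, histones left out, had medians of -0.08 in PEA1 and -0.21 in PEO4 over all 18 pairs.

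**Figure D5:**
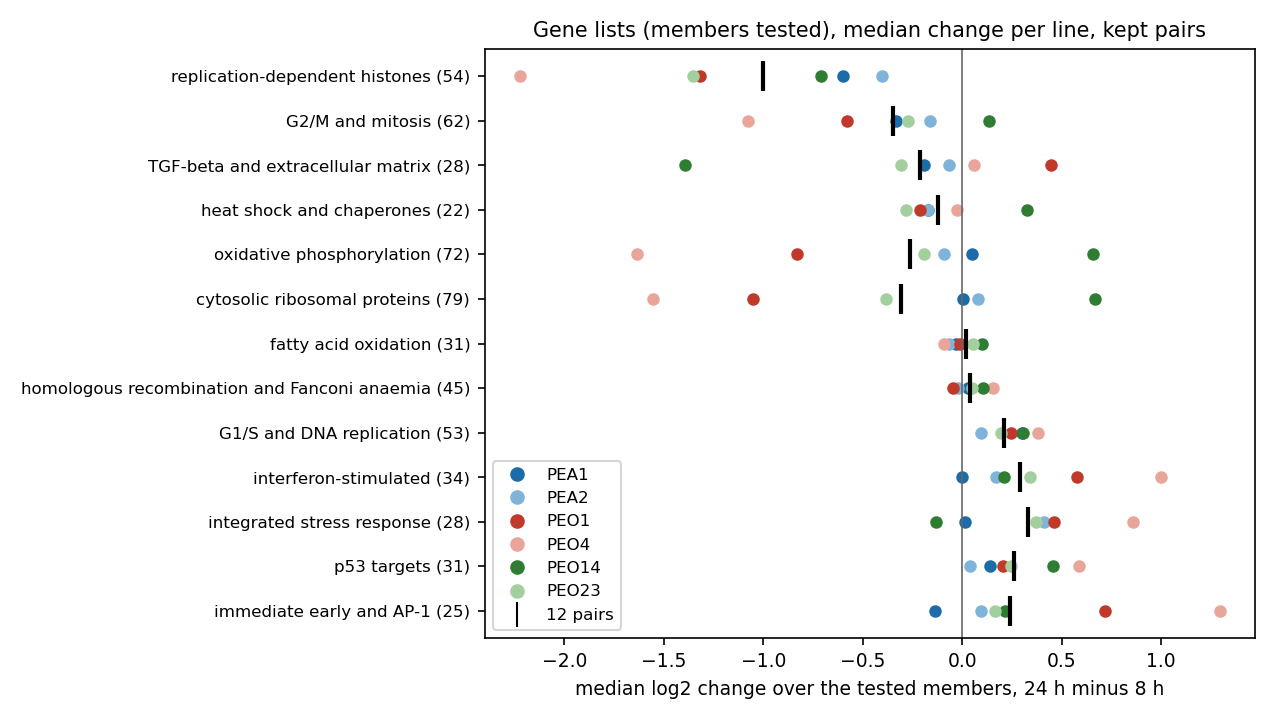
Median log2 change, 24 h minus 8 h, of the tested members of 13 gene lists in each line (coloured points) and over the 12 kept pairs (black marks), with the number tested in brackets. Histones lie below 0 in all 6 lines, from -2.22 in PEO4 to -0.40 in PEA2, and the ribosomal protein and oxidative phosphorylation lists run from -1.55 and -1.64 in PEO4 to 0.67 and 0.66 in PEO14. PEO4 and PEO14 each have 1 kept pair, and the scaling factors of the PEO4 pair differ 3.67-fold.

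ITGB6, the integrin subunit of a receptor that activates latent TGF-beta, was the third gene outside the histones that fell. It had 0 to 15.1 rescaled TPM with a median of 5.95 at 24 h, against 6.31 to 39.8 with a median of 15.6 at 8 h. The change was -1.23 ± 0.23 (limma, adjusted p = 0.0353), and it was lower in 11 of 12 kept pairs, with 1 pair of PEO1 higher. The difference over all 18 pairs was -1.05 ± 0.36 (limma, adjusted p = 0.723). Of the other 27 genes of TGF-beta signalling and extracellular matrix 0 were called (all genes: 0.162%). At an unadjusted p under 0.05, 6 of the 28 tested were lower and 0 higher over the kept pairs (all genes: 6% lower and 6.92% higher). The list's median was -0.21, and -0.003 without rescaling (all genes: 0.25). ID1, an inhibitor of differentiation induced by BMP signals, had a log2 difference of -0.65 ± 0.20, and FN1, fibronectin, one of -0.54 ± 0.24 (limma, adjusted p = 0.2 and 0.357). By line the list's median was -1.39 in PEO14 and 0.45 in PEO1 over the kept pairs.

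Ribosomal protein genes and oxidative phosphorylation genes had medians of -0.31 (79 tested) and -0.26 (72 tested) with 0 called in each (all genes: 0.162%). Without rescaling they were 0.00 and 0.05, beside 0.25 for all genes. Both rescaled medians depended on the 2 pairs with unequal scaling factors and were -0.07 and -0.01 without these pairs. Of 22 chaperones, with a median of -0.12 that was 0.16 without rescaling (all genes: 0.25), 5 were lower at an unadjusted p under 0.05 (all genes: 6%). Among them was HSPA8, the constitutive HSP70 chaperone, at -0.86 ± 0.21 (limma, adjusted p = 0.124). Fatty acid oxidation genes had a median of 0.02, with 1 of 31 higher and 0 lower at an unadjusted p under 0.05 (all genes: 6.92% higher and 6% lower). CPT1A, which imports long-chain fatty acids into mitochondria, had medians of 6.97 at 24 h and 9.17 at 8 h and a change of -0.33 ± 0.18 (limma, adjusted p = 0.434). Homologous recombination and Fanconi genes had a median of 0.04, with 3 of 45 higher and 0 lower, and nucleotide excision repair genes 0.03, with 3 of 26 higher and 2 lower. These counts stand beside the same shares of all genes.

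The change from 8 h to 24 h was next compared between lines. The test that it differed among the 6 lines called 0 genes over all pairs (0%) and 0 over the kept pairs (0%), at lowest adjusted p-values of 0.374 and 0.05001 (limma F test). At an unadjusted p under 0.05 this test gave 1387 genes (11.5%) over all pairs and 2911 (23.6%) over the kept pairs. The kept-pair count was close to its threshold, with 3 genes called without rescaling (PPAN, SCARNA6 and SNORA43), 10 with upper quartile scaling, 98 without the pair as a block and 312 at a pseudocount of 0.1. For the 20 called genes its adjusted p ran from 0.107 for ITGB6 to 0.695 for HIST2H4A and HIST2H4B over the kept pairs. The difference between the 3 resistant and the 3 sensitive lines called 0 genes in both sets (0%), with 344 (2.84%) and 348 (2.82%) at an unadjusted p under 0.05 and lowest adjusted p-values of 0.986 and 0.985. Over the kept pairs without PEA1 it called 1 gene, SNORA14A, a small nucleolar RNA, at -4.87 log2 units for resistant minus sensitive lines (limma, adjusted p = 0.0193). HIST1H1D, for example, had a log2 difference of -1.24 and -0.49 in the 2 kept pairs of PEA2 and -2.87 in the 1 kept pair of PEO14, at a line-by-time adjusted p of 0.524.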

How the data were processed

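Total RNA was sequenced from stranded libraries made with a total RNA kit from 200 ng of RNA, as pairs of 75 bases, per the labels' protocols. The deposited values are TPM for 25435 genes, made by the authors. Base calling used bcl2fastq 2.18 and the genome build hg19, per the submitters' processing notes, while the aligner, quantifier and strand setting were not given in the sources used here. In 28 rows the deposited symbol is a date. TPM carries no depth, so its precision rests on the replicates.

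The TPM were rescaled by median ratio over 2647 genes above 0 in all 36 libraries (9433 genes in the 24 libraries of the kept pairs), with factors of 0.325 to 1.585 over all 36 libraries. Genes of at least 1 TPM in 18 of 36 libraries (12 of 24 in the kept pairs) were tested on log2(rescaled TPM + 1) with limma 3.58.1 in R 4.3.3, using a mean-variance trend, the pair as a block and Benjamini-Hochberg adjustment over all tested genes, at an adjusted p of 0.05. Fold changes on this scale understate those of low genes. The block follows the passages in the labels, which were shared in 18 of 18 pairs. The correlation of paired libraries' deviations ran from -0.409 to 0.53 and exceeded 0.1 in 8 of 18 pairs. Replicates came from 3 days, per the labels, and p-values measure the spread between these cultures. Library measures were compared by permutation tests (SciPy 1.17.1). The fits were tested on simulated data with the same change in every pair and independent normal noise. Such data cannot show how the calls fare where lines or library quality differ. The alternatives are another scaling, pseudocount or filter, no block, line means, array weights, and leaving out replicates, lines or pairs. Settings of the kept pairs other than the pairs themselves were chosen after seeing the data. The members and gene lists were chosen with earlier results of these data known. The rule for named genes, which asked for a call over all pairs and the kept pairs with a mean of at least 10 rescaled TPM, was met by 0 genes. The labels give the dose as 80 µM where the series text gives mM. Untreated libraries are described for the histone share alone, and gene spans and promoters come from RefSeq GRCh38.p14, which is not the build of the files. Transcript lengths are those of the longest GENCODE transcript of a gene.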

Additional observations from a re-analysis of the deposited data

Results flagged for a closer look

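For 4 of the 63 genes named, every pair of one line or more moved one way while every pair of another line moved the other way, although the line-by-time test did not pass for any of them over all pairs or the kept pairs. The pairs set aside are counted here, and the scaling factors are those of all 36 libraries. Changes near 0 can take the other sign with the factors of the kept libraries. Over all 18 pairs, genes with a RefSeq span, histones left out, had medians of -0.70 in PEO14 and 0.37 in PEO1. At 24 h, replicates 2 and 3 of PEO14 listed 6058 and 8748 genes. FN1, fibronectin, was higher at 24 h in each pair of PEO4, with a mean log2 change of 0.88, and lower in each pair of PEA1, PEA2, PEO14 and PEO23, with a mean of -1.14. Its adjusted p for a difference among lines was 0.374 over all pairs and 0.109 over the kept pairs (limma F test). JUN, a subunit of AP-1, was higher in each pair of PEO1 and PEO23, with a mean of 0.77, and lower in each pair of PEA1, with a mean of -0.44. The values in PEA1 were -0.93, -0.30 and -0.10. Its adjusted p among lines was 0.609 over all pairs and 0.145 over the kept pairs (limma F test). NUPR1, the stress-induced chromatin protein, was higher in each pair of PEA2, PEO1, PEO4 and PEO23, with a mean of 1.43. It was lower in each pair of PEO14, with a mean of -0.82, beside the median of -0.70 given above for that line. Its adjusted p among lines was 0.374 over all pairs and 0.217 over the kept pairs (limma F test). IGFBP3, which binds insulin-like growth factors, was higher in each pair of PEA2 and PEO1, with a mean of 0.88, and lower in each pair of PEA1, PEO14 and PEO23, with a mean of -1.78. Its adjusted p among lines was 0.374 over all pairs and 0.05001 over the kept pairs (limma F test), and it was the 1 gene called among lines with array weights over all pairs (limma, adjusted p = 0.0207).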

How the results depend on the processing

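Over all 18 pairs limma called 0 genes in either direction, and the same counts held without rescaling, with upper quartile scaling, with a filter of 3 libraries, without a filter and over line means. The kept pairs gave 3 higher and 17 lower genes. Array weights, which give less weight to variable libraries, gave 50 higher and 153 lower, of which 10 and 63 moved the same way in all 6 lines. A pseudocount of 0.1 gave 3 lower genes, HIST1H2BH, HIST1H2BI and HIST2H2BF. Without the replicate block, which drops the pairing, 7 genes were lower (HIST1H1C, HIST1H1D, HIST1H2BH, HIST1H2BI, HIST2H2BF, ID1 and KIF20A). Leaving out 1 replicate number gave 0 to 1 lower genes and 0 higher, the 1 being HIST1H1D without replicate 3, which was also the 1 lower gene without PEO14. The line-by-time test called 8 genes with a filter of 3 libraries, 80 without a filter, 6 without the replicate block and 1 (IGFBP3) with array weights, against 0. The resistant-by-time test called 0 genes in each of these settings of all pairs, and 1 gene, SNORA14A, over the kept pairs without PEA1. Over the kept pairs there were 13 higher and 32 lower genes without the replicate block, 32 and 80 with array weights, and 0 and 0 over line means. Leaving out 1 replicate number, which left 7 to 9 pairs, gave 0 higher and 0 to 2 lower genes. Leaving out a line gave 0 higher and 3 lower without PEA1, 10 lower without PEA2, 0 and 4 without PEO1, 10 lower without PEO4, 0 and 5 without PEO14, and 0 and 0 without PEO23. Without the 2 pairs of unequal scaling factors there were 0 and 5. Without rescaling the kept pairs gave 3 higher and 15 lower genes. Of the 20 called genes, 8 passed without rescaling, all of them histones, and 18 with upper quartile scaling, and 0 changed sign in these settings. The 3 higher genes called without rescaling were thus other genes than TSPYL2, IFIT3 and GABARAPL1. The cause of these differences was not tested, beyond the smaller number of pairs where some were left out. The library measures kept their side of the threshold over the kept pairs and without each replicate number. TPM holds no depth, so no limit for low genes can be given.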
